A study of Homo sapiens with 4 samples.

Results

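The genes described are 30 genes of homologous recombination and of the Fanconi anemia pathway, listed by name (BRCA1, BRCA2, BARD1, BRIP1, PALB2, RAD51AP1, RAD54L, RAD54B, XRCC2, XRCC3, BLM, EXO1, FANCA, FANCB, FANCC, FANCD2, FANCE, FANCF, FANCG, FANCI, FANCL, FANCM, MSH6, RBBP8, CHEK1, CHEK2, ATM, ATR, RAD50 and NBN) and found by those names among the 25972 gene names with a value on the arrays. All 30 were on the array, 24 of them well above background on all 4 arrays, and all 30 were among the 16468 genes tested. They were measured in human proximal tubular cells (HPTCs) that were kept without serum and supplements for 24 h before they received IL-1β (10 ng/mL) together with empagliflozin (Empa, 500 nM), an inhibitor of the glucose transporter SGLT2, for another 24 h. All 4 arrays carried both agents, and each of the cell lines HK-2 and RPTEC/TERT1 was labelled on 2 of them, as replicate 1 (rep1) and replicate 2 (rep2). HK-2 is a cell line immortalised with papillomavirus genes E6 and E7, whose products disable p53 and the retinoblastoma protein, and RPTEC/TERT1 is a cell line immortalised with telomerase reverse transcriptase. The methods call the arrays of a condition biological duplicates. Unstimulated cells and cells given only IL-1β were not analysed here, and no value below is an effect of IL-1β or of Empa.

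Homologous recombination repairs a broken chromosome by copying the intact sister chromatid. The broken ends are cut back to single strands, BRCA1, BARD1, PALB2 and BRCA2 prepare these for strand exchange, and the matching sequence is then found and invaded. In the Fanconi anemia pathway a core complex attaches ubiquitin to FANCD2 and FANCI at a crosslink between the strands of DNA, which starts its removal and hands the resulting break to recombination. Since the sister chromatid exists only after replication, many of these genes are transcribed mainly in cycling cells, in part through E2F transcription factors, and are low in resting, differentiated tubular epithelium.

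Promoter sequence is shown first for the 6 genes that hold a match to an E2F motif close to their start. The motifs searched were TTTCCCGC, TTTCGCGC, TTTGCCGC and TTTGGCGC, on both strands, in the window from 250 bases before to 50 bases after the start of each gene in RefSeq (GRCh38.p14). Of the 27 genes with a window in that table (there was none for FANCI, NBN and RAD54B), 6 held a match (22.2%), against 908 of all 27305 windows (3.33%). The 27305 windows, here and in the shares below, were not selected by gene type or by expression on the arrays. The share among expressed protein-coding genes was not counted. Each sequence is written 5′ to 3′ along the gene, and the capitals mark the match or, where the match lies on the other strand, its reverse complement. FANCC held 2 matches that do not overlap.
EXO1: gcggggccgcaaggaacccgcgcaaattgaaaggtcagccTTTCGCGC
FANCA: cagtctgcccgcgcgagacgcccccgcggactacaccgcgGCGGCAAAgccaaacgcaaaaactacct
FANCC: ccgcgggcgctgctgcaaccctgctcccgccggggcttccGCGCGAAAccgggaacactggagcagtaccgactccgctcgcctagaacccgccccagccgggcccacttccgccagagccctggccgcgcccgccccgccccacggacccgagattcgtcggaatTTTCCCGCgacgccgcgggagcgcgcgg
FANCD2: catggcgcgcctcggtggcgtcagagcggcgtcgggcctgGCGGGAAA
MSH6: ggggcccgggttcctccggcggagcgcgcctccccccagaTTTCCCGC
XRCC2: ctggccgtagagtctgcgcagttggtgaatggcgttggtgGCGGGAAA
These stretches lie at chr1:241848168-241848215 (EXO1, plus strand), chr16:89816792-89816859 (FANCA, minus strand), chr9:95317728-95317921 (FANCC, minus strand), chr3:10026395-10026442 (FANCD2, plus strand), chr2:47783108-47783155 (MSH6, plus strand) and chr7:152676113-152676160 (XRCC2, minus strand). The CCAAT box was found in 13 of the 27 windows (48.1%), against 35.7% of all windows, and a cell cycle homology region motif (TTTGAA or TTCGAA) in 3 (11.1%), against 16.6%. Both an E2F motif and a CCAAT box were found in 2 windows (7.41%), those of FANCA and MSH6, against 1.29% of all windows. A match is a description of the letters, and no binding was measured.

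Each 1-colour Agilent array held 43118 spots that are not controls, of which 59.2% to 64.9% were well above background. Levels are the log2 of the processed signal over the 75th percentile of the array, so that a difference of 1 is 2-fold. The lowest level that counts as measured is a common floor of -5.37. Precision is limited by the number of arrays. The median SD between the spots of probes that the array carries 10 times was 0.0839 to 0.141 on the 4 arrays, and 7 spots of HK-2 rep1, but none of the other arrays, had a local background above 100.

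The arrays did not pair by their labels. Over 17928 genes, HK-2 rep1 correlated with RPTEC/TERT1 rep2 at r = 0.980 and HK-2 rep2 with RPTEC/TERT1 rep1 at r = 0.976, while the arrays of the same label correlated at 0.865 (HK-2) and 0.855 (RPTEC/TERT1) and the arrays of the same number at 0.861 and 0.875. A replicate number is also a scan date. Which culture each array came from cannot be told apart from these files, and every array is therefore named by its label and given on its own. Of 16 markers of the proximal tubule, 8 to 11 were well above background on each array. CUBN, ALPL, SLC22A6 and HNF4A, the endocytosis receptor cubilin, a brush border phosphatase, an organic anion transporter and a lineage transcription factor, were well above background on none. The brush border peptidase gene ANPEP and the adhesion gene CDH1 were well above background only on HK-2 rep1 and RPTEC/TERT1 rep2, as noticed after their values were seen. CDH1 was listed as a marker of epithelium in general, and the others of that list, EPCAM, KRT8 and KRT18, were well above background on all 4 arrays. Of the 11 tubule markers tested, 5 were more than 1 lower on HK-2 rep2 than on HK-2 rep1, against 17.7% of all genes tested. Only LRP2 was more than 1 higher, against 16.4%, and the median of the 11 was -0.56. On RPTEC/TERT1 rep2, 4 were more than 1 higher than on the other array of that label, against 22.1%, and 0 were lower, against 18.4%. The median of the 11 was 0.89 there. LRP2, the endocytosis receptor megalin, had levels of -3.34, -1.72, -2.77 and -3.06 on HK-2 rep1, HK-2 rep2, RPTEC/TERT1 rep1 and RPTEC/TERT1 rep2. Of 9 markers of other cell types, 3 to 5 were well above background on each array, with no level above -1.52.

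The genes of homologous recombination and the Fanconi pathway split the 4 arrays in the same way, with low levels on HK-2 rep1 and RPTEC/TERT1 rep2 and high levels on HK-2 rep2 and RPTEC/TERT1 rep1. In 25 of the 30 genes both of the former arrays lay below both of the latter. Where an array is below background the level is at most the value given, and differences from it are lower bounds. The level varied by more than 1 over the arrays in 25 genes, and 24 of these showed that order. FANCF was the exception among them, with its lower levels on HK-2 rep2 and RPTEC/TERT1 rep1. In RAD50, NBN, RBBP8, PALB2 and ATM no pair of arrays was more than 1 apart. Lower signal in bulk RNA can come from fewer cells that express a gene or from less RNA per cell, and these cannot be told apart.

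**Figure D1:**
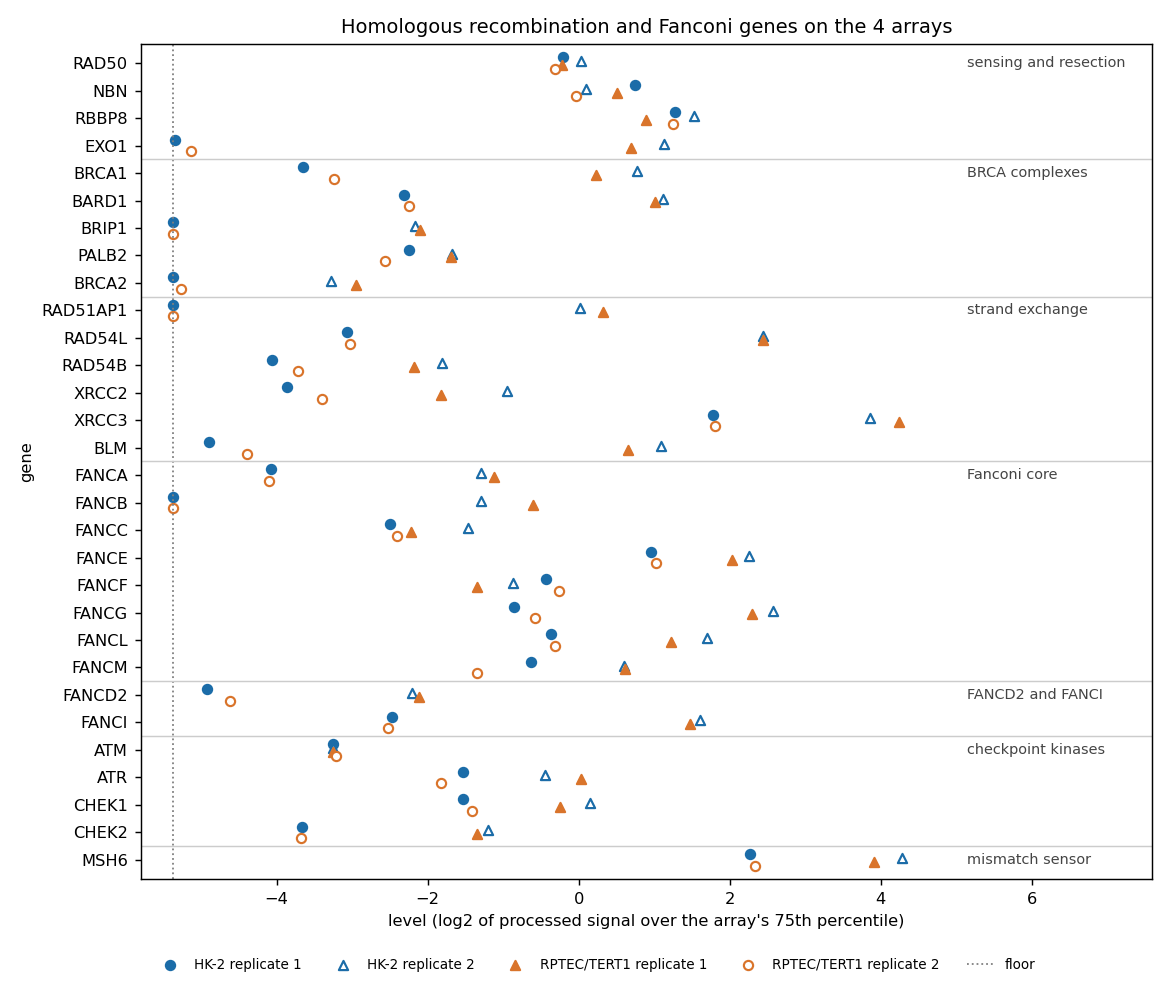
Level of each of the 30 genes on each of the 4 arrays (log2 of processed signal over the 75th percentile of the array), grouped by role, with colour for the labelled cell line, filled symbols for replicate 1 and the dotted line at the floor of -5.37. HK-2 rep1 and RPTEC/TERT1 rep2 lie together at the lower end in most rows, RAD50, NBN, RBBP8, PALB2 and ATM vary by less than 1, and FANCF runs the other way.

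Compared by label, no gene passed the test between HK-2 and RPTEC/TERT1. With limma over 16468 genes and Benjamini-Hochberg adjustment, 0 genes (0%) passed an adjusted p of 0.05, and each of the 30 genes had an adjusted p of 1. At an unadjusted p under 0.05 there were 23 genes (0.14%), 0 of them among the 30. The median difference of the 30 genes between the labels, HK-2 minus RPTEC/TERT1, was 0.070, while the median SD within a label was 1.54. With 1 array left out the median difference was 1.16 (HK-2 rep1), -1.20 (HK-2 rep2), 1.01 (RPTEC/TERT1 rep1) or -1.05 (RPTEC/TERT1 rep2), so that its sign turned without either replicate 2 array. FANCM had a fitted difference of 0.36 with an SE of 0.90, and EXO1 had a difference of 0.11 with an SE of 3.01. With an SE like that of EXO1, a difference of several log2 units between the cell lines would not be detected. The 2 arrays of a label did not overlap with those of the other in 3 of the 30 genes, RAD50, RBBP8 and ATM, against 7.17% of all genes tested. The gap between the nearest arrays, HK-2 minus RPTEC/TERT1, was 0.021 in RAD50, 0.027 in RBBP8 and -8.3e-05 in ATM. Each is smaller than the SD between repeated spots given above, so these genes do not set the labels apart.

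Compared within a replicate number, the labelled cell lines differed in opposite directions. In replicate 1, 23 of the 30 genes were lower by more than 1 in HK-2 than in RPTEC/TERT1, against 16.4% of all genes tested, and 0 were higher by more than 1, against 19.6%. With normexp background correction these counts were 9 lower and 8 higher, and with the deposited log2 values 12 lower and 1 higher. The median over all genes tested moved to 0.93 with normexp and to 0.68 with the deposited values. The share of all genes past 1 was not counted under these alternatives. In replicate 2, 23 were higher by more than 1 in HK-2, against 16% of all genes tested, and 0 were lower by more than 1, against 17.8%. The median difference was -2.18 in replicate 1 and 2.03 in replicate 2, while the medians over all genes tested were 0.12 and -0.076. These are comparisons of 1 array with 1 array and carry no test. The same genes can be read along a label. From replicate 1 to replicate 2 of HK-2 the level was higher by more than 1 in 24 genes, against 16.4% of all genes tested, and lower in 0, against 17.7%. With normexp these counts were 12 higher and 6 lower, and with the deposited values 12 higher and 2 lower. The median over all genes tested was then -0.91 with normexp and -0.66 with the deposited values. In RPTEC/TERT1, replicate 2 was lower than replicate 1 by more than 1 in 23 genes, against 18.4%, and higher in 1, FANCF, against 22.1%. The median differences were 2.17 and -2.14. All of these pairs share arrays with each other and are not independent.

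Between the arrays that resembled each other, the genes were close. HK-2 rep1 and RPTEC/TERT1 rep2 were more than 1 apart in 0 of the 30 genes, against 4.9% of all genes tested, with a median difference of -0.053. With normexp 20 genes were more than 1 higher on HK-2 rep1 and 1 was lower (median 1.55, against 0.76 over all genes tested). With the deposited values 14 were higher and 0 lower (median 0.95, against 0.46 over all genes tested). Without the 7 spots of bright local background, left out after the data had been seen, normexp gave 0 higher and 0 lower (median -0.0070). The closeness of this pair thus depends on the background correction and on those spots. HK-2 rep2 and RPTEC/TERT1 rep1 were more than 1 apart in 0, against 6.78%, with a median difference of 0.14. The widest gaps were those of NBN in the former pair (0.79) and XRCC2 in the latter (0.88).

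**Figure D2:**
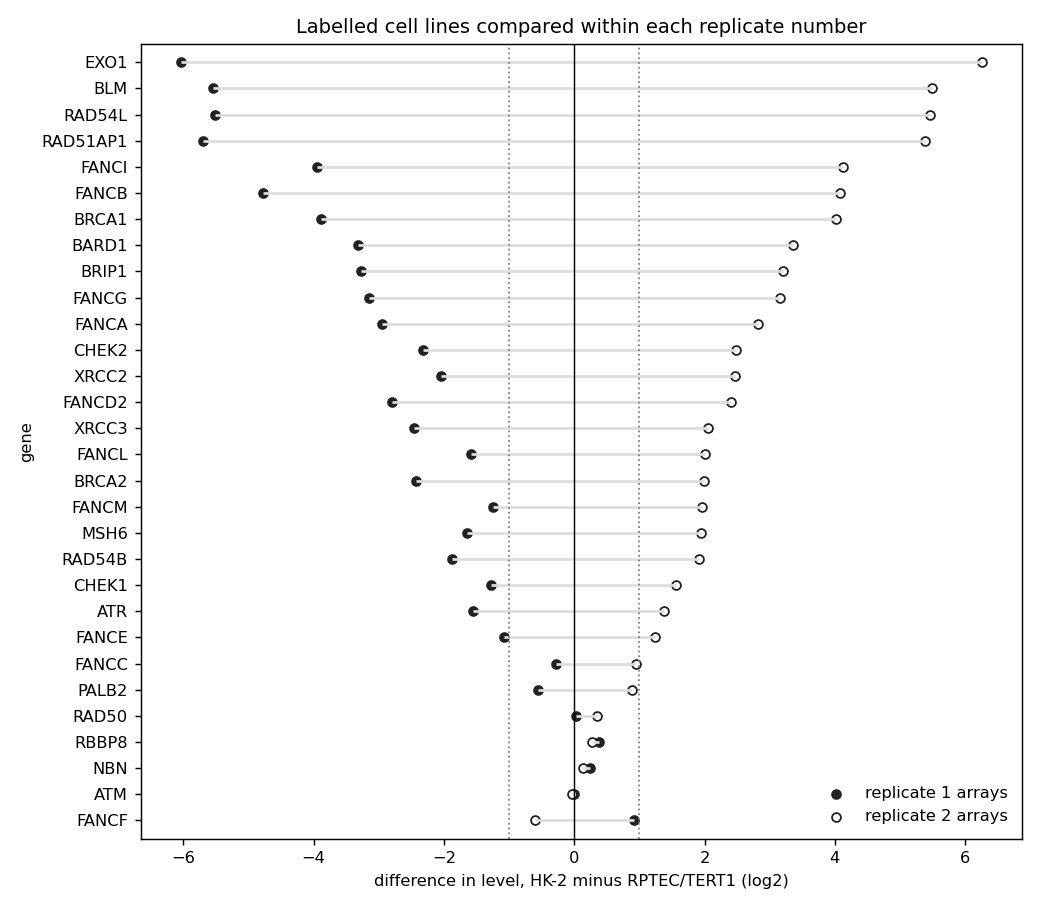
Difference in level of each gene between the arrays labelled HK-2 and RPTEC/TERT1 (log2), within replicate 1 (filled) and within replicate 2 (open), with dotted lines at a 2-fold difference. The points mirror each other around 0 for 23 genes, which lie beyond -1 in replicate 1 and beyond 1 in replicate 2, while RAD50, NBN, RBBP8 and ATM lie near 0 in both.

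Among the genes that sense and cut back broken ends, only EXO1 varied widely over the 4 arrays. RAD50, which with NBN and MRE11 forms the complex that holds broken ends, had levels of -0.20 on HK-2 rep1, 0.04 on HK-2 rep2, -0.23 on RPTEC/TERT1 rep1 and -0.31 on RPTEC/TERT1 rep2. NBN had levels of 0.75, 0.09, 0.52 and -0.04 on the arrays in the same order, which is kept below. RBBP8, which encodes CtIP and starts the cutting, had levels of 1.28, 1.53, 0.90 and 1.26. None of these 3 genes separated the arrays as the longer list did. EXO1 encodes the exonuclease that extends the cut, and its levels were -5.35, 1.13, 0.69 and -5.13. It was not well above background on HK-2 rep1 and RPTEC/TERT1 rep2, and was at least 89.2-fold higher on HK-2 rep2 than on HK-2 rep1 and at least 56.5-fold higher on RPTEC/TERT1 rep1 than on replicate 2. Its promoter is one of the 6 with an E2F motif shown above.

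In the BRCA complexes 4 of the 5 genes had the split. BRCA1, which with BARD1 forms a ubiquitin ligase at broken ends, had levels of -3.65, 0.78, 0.24 and -3.24, and BARD1 had levels of -2.31, 1.12, 1.01 and -2.24. Both were well above background on all arrays. BRCA1 was 21.6-fold higher on HK-2 rep2 than on HK-2 rep1, and BARD1 was 10.8-fold higher. The averages per label hide this, since the mean of BRCA1 was -1.44 ± 3.13 (SD, n = 2) in HK-2 and -1.50 ± 2.46 (SD, n = 2) in RPTEC/TERT1. BRIP1, a helicase that binds BRCA1, was at the floor on HK-2 rep1 and RPTEC/TERT1 rep2, with -2.17 and -2.10 on the others, at least 9.22-fold higher in HK-2 rep2 than in HK-2 rep1. BRCA2, which prepares the single strands for exchange, was not well above background on the same pair of arrays. Its levels were -5.37, -3.27, -2.95 and -5.26, which is at least 4.28-fold from HK-2 rep1 to HK-2 rep2. PALB2, which bridges BRCA1 and BRCA2, had the same order with a narrow range, with levels of -2.25, -1.67, -1.69 and -2.56.

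In all 6 strand exchange genes each of the 4 comparisons by number or by label passed 1 on the log2 scale. RAD51AP1, which stimulates the pairing of strands, was at the floor on HK-2 rep1 and RPTEC/TERT1 rep2 and had levels of 0.02 on HK-2 rep2 and 0.32 on RPTEC/TERT1 rep1, at least 41.9-fold and 51.8-fold higher than on the other array of the same label. RAD54L, a motor protein that remodels DNA during strand exchange, was well above background on all arrays. Its levels were -3.07, 2.44, 2.44 and -3.02, a 45.7-fold difference in HK-2 and a 44.0-fold difference, in the opposite order of replicates, in RPTEC/TERT1. The related motor RAD54B had a smaller range, with levels of -4.05, -1.81, -2.18 and -3.72. Of its probes, A_23_P94141 also matched a transcript of another gene, FSBP, and was below background on HK-2 rep1 and RPTEC/TERT1 rep2. The range of RAD54B is therefore a lower bound. The other probe, A_23_P82738, had levels of -2.74, -0.40, -0.74 and -2.60. BLM, the helicase mutated in Bloom syndrome, which separates joined chromosomes, had levels of -4.89, 1.09, 0.65 and -4.40 and was not well above background on HK-2 rep1. The level on HK-2 rep2 was at least 63.3-fold higher. XRCC2 and XRCC3 help to assemble the proteins of strand exchange on single strands. XRCC2 had levels of -3.86, -0.94, -1.82 and -3.40. XRCC3 had levels of 1.78, 3.86, 4.24 and 1.81, and rests on probes that disagree.

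In the Fanconi core complex 7 of the 8 genes were more than 1 higher on HK-2 rep2 than on HK-2 rep1, with a median of 1.68 for the group. FANCG, a scaffold subunit, had levels of -0.86, 2.58, 2.30 and -0.58, and FANCA, which binds it, had levels of -4.08, -1.29, -1.12 and -4.11. FANCB, the X-linked subunit that partners with the ligase, was at the floor on HK-2 rep1 and RPTEC/TERT1 rep2 and had levels of -1.29 on HK-2 rep2 and -0.60 on RPTEC/TERT1 rep1. These 3 genes span a range of at least 2.98. FANCL, the ubiquitin ligase itself, had levels of -0.36, 1.70, 1.22 and -0.31. FANCM, the motor protein that anchors the complex to DNA, had levels of -0.63, 0.61, 0.61 and -1.35. FANCE, which contacts FANCD2, had levels of 0.96, 2.26, 2.03 and 1.02, so it had the split within a narrow range. FANCC had levels of -2.50, -1.46, -2.22 and -2.40, and only HK-2 rep2 stood apart. FANCF, an adaptor subunit, had levels of -0.43, -0.87, -1.34 and -0.26, so that the order of the arrays was turned.

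FANCD2 and FANCI, the paired proteins that receive the ubiquitin, followed the split. FANCI had levels of -2.47, 1.61, 1.48 and -2.52, a 16.97-fold difference between the HK-2 arrays and a 15.9-fold difference between the RPTEC/TERT1 arrays. FANCD2 had levels of -4.92, -2.21, -2.11 and -4.62. FANCD2 and CHEK2 have pseudogene copies, and what these add to the signal was not tested.

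The checkpoint kinases differed among themselves. ATM, the kinase that answers double-strand breaks, had a level between -3.25 and -3.21 on all 4 arrays, which is the mean of 2 probes that run in opposite directions. ATR, the kinase that answers stalled forks, had levels of -1.53, -0.45, 0.03 and -1.82. CHEK1, the kinase that ATR activates, had levels of -1.53, 0.16, -0.25 and -1.41, and CHEK2, the kinase that ATM activates, had levels of -3.66, -1.20, -1.34 and -3.67. Thus 3 of the 4 kinases had the split, by 2.12-fold (ATR), 3.23-fold (CHEK1) and at least 5.53-fold (CHEK2) between the HK-2 arrays. The bound for CHEK2 comes from a probe below background on HK-2 rep1, and FANCA, FANCD2 and RAD54B also hold such a probe. MSH6 recognises mismatched bases and belongs to mismatch repair rather than to recombination. It had levels of 2.27, 4.28, 3.91 and 2.33, which is 4.01-fold between the HK-2 arrays.

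Of the 43 probes for these genes 42 were used, and 10 genes had more than 1 probe. Counted by probe, 31 of the 42 were more than 1 higher on HK-2 rep2 than on HK-2 rep1 and 1 was lower, and 32 were more than 1 lower on RPTEC/TERT1 rep2 than on replicate 1 and 2 were higher. No share over all probes is given beside these counts, which rest on the same signals as the counts by gene. No probe was saturated. For 8 genes (ATM, BRCA1, BRCA2, EXO1, FANCA, MSH6, RAD50 and RAD54B) a probe was spotted 10 times, and the SD between its spots was at most 0.344 on any array. In 6 of them every spot on HK-2 rep1 and RPTEC/TERT1 rep2 lay below every spot on the other arrays, RAD50 and ATM being the others. The probe of MSH6 is shown as an example of what was measured. It is A_23_P102202, lies in the coding sequence at chr2:48033919-48033978 (GRCh37), and is printed without capitals.
MSH6 probe: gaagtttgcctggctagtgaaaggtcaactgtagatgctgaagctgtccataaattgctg

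**Figure D3:**
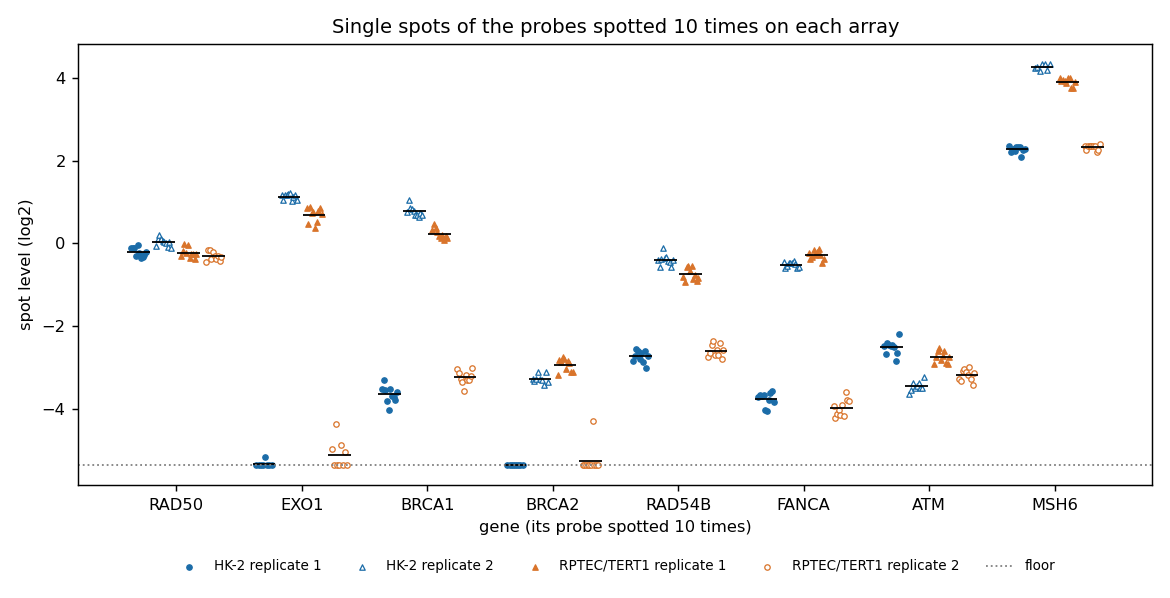
Level of every single spot (log2) for the 8 probes that each array carries 10 times, by array, with a bar at the mean and the dotted line at the floor of -5.37. For EXO1, BRCA1, BRCA2, RAD54B, FANCA and MSH6 the spots of HK-2 rep1 and RPTEC/TERT1 rep2 lie below those of the other arrays, for RAD50 all arrays lie close together, and for ATM the order differs.

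Probes of 1 gene disagreed in XRCC3, ATM, FANCC and FANCF. For XRCC3, A_33_P3301524 (chr14:104163955-104164014, GRCh37) had levels of -2.99, 1.74, 1.93 and -2.64, while A_33_P3363515 (chr14:104170734-104170793), whose transcript was not found in the RefSeq table, had levels of 6.55, 5.98, 6.55 and 6.27. Only the former had the split. For ATM, A_23_P35916 (chr11:108236085-108236144) had levels of -2.52, -3.46, -2.76 and -3.19, and A_33_P3589722 (chr11:108099942-108100001) had levels of -3.99, -3.04, -3.74 and -3.23. Their opposite courses cancel in the gene's mean, so the narrow range of ATM is not a measure of constancy. For FANCC, A_23_P32021 (chr9:97861522-97861581) had the split, with -1.10, 0.48, 0.26 and -1.23, and A_33_P3319765 (chr9:97872871-97872930) did not, with -3.91, -3.41, -4.69 and -3.58. For FANCF, A_23_P12896 (chr11:22644733-22644792) had levels of -0.48, -1.52, -1.90 and -0.48, and A_33_P3386364 (chr11:22646233-22646292) had levels of -0.37, -0.22, -0.79 and -0.04. The turned order of FANCF over all arrays thus rests on the first of them.

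The other genes of these routes were counted in the same way. Of 60 other recombination and Fanconi genes, 59 were tested and 0 were called between the labels by limma, with 0 at an unadjusted p under 0.05. Within replicate 1, 31 of the 59 were lower by more than 1 in HK-2, against 16.4% of all genes tested, and 1 was higher, against 19.6%. The median was -1.08. Within replicate 2, 31 were higher by more than 1, against 16%, and 1 was lower, against 17.8%, with a median of 1.10. Named by the range of their floored levels were POLQ (at least 5.80), the polymerase of microhomology-mediated end joining, EME1 (at least 4.96), a subunit of a nuclease that cuts joint molecules, and PSMC3IP (4.94), a cofactor of strand exchange. POLQ and EME1 were not well above background on HK-2 rep1 or RPTEC/TERT1 rep2, so the order of these ranges is not measured. In 6 mismatch repair genes the medians were -0.89 within replicate 1 and 1.01 within replicate 2. In 10 end joining genes they were -0.45 and 0.44.

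Proliferation markers split the arrays in the same way. Of 25 such genes 23 were tested, and all 23 were more than 1 apart in each of the 4 comparisons by number or by label, with medians of -4.86 within replicate 1 and 4.76 within replicate 2. MKI67, the antigen Ki-67, had levels of -5.05, -0.15, 0.28 and -4.98, and TOP2A, the topoisomerase of dividing cells, had levels of -5.36, 2.25, 2.29 and -4.96. The median level of the list was -2.53 on HK-2 rep1, 2.19 on HK-2 rep2, 2.29 on RPTEC/TERT1 rep1 and -1.79 on RPTEC/TERT1 rep2. The part that the number of dividing cells has in the levels of the repair genes was not tested.

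**Figure D4:**
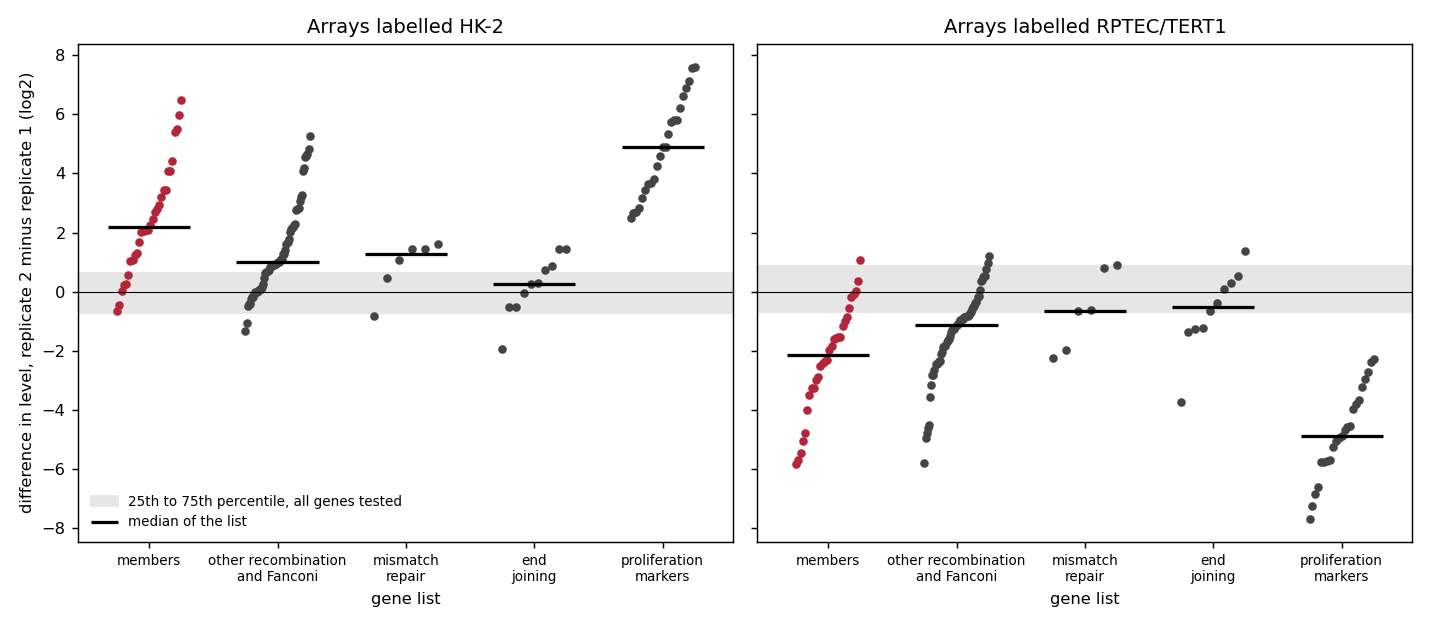
Difference in level between replicate 2 and replicate 1 (log2) of the arrays labelled HK-2 (left) and RPTEC/TERT1 (right), with a point for each gene of 5 lists, a bar at the median of the list and a grey band from the 25th to the 75th percentile of all genes tested. The 30 genes (medians 2.17 and -2.14) lie further from 0 than the other repair lists and less far than the proliferation markers (medians 4.88 and -4.86), with the sign turned between the labels.

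Of the 27 genes with a promoter window, 22 were more than 1 higher on HK-2 rep2 than on HK-2 rep1, and the 6 windows with an E2F motif were among these, FANCC included. In each of the other comparisons by number or by label, 5 of the 6 passed 1. FANCC did not, with -0.29 within replicate 1, 0.94 within replicate 2 and -0.19 between the RPTEC/TERT1 arrays, and its 1.04 between the HK-2 arrays rests on probes that disagree. With so few windows this is a count and carries no test. BLM, RAD51AP1 and RAD54L held no E2F motif in this window and each held a CCAAT box. BRCA1, BARD1, BRCA2, FANCB, FANCE, FANCG, FANCL and ATR, which had the split too, held neither. ATM, PALB2 and FANCF, which were not more than 1 higher on HK-2 rep2 than on HK-2 rep1, also held a CCAAT box. The values of HK-2 rep1 depend on the background correction. With normexp correction the median difference within replicate 1 was -0.17 in place of -2.18, and BRIP1, BRCA2, RAD54B, XRCC2, FANCA, FANCB, FANCD2, CHEK1 and CHEK2 turned their sign there, while the median over all genes tested was 0.93 in place of 0.12. Without the 7 spots of bright local background, left out after the data had been seen, the same correction gave -1.26, and 0 of these differences turned.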

How the data were processed

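The labels gave the group, replicate number, doses and times of each sample, and the methods name the same doses. RNA was isolated with the innuPREP kit by the methods and with the RNeasy kit by the labels. For each array the authors deposited linear spot intensities read by Agilent Feature Extraction (9.5.3.1). Per the file headers the processed signal is background-subtracted and unscaled between arrays. A table of log2 values was deposited as well, whose processing no source used here gives, and which served only as an alternative.

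Control and outlier spots were left out. The processed signal was divided by the array's 75th percentile and taken to log2, with a floor of 0.0242 of the percentile common to all arrays (the lowest scaled signal marked well above background, on the array where this is highest). Spots were averaged to probes, and probes well above background on at least 1 array to genes. Where an array was below background, a fold is a lower bound. HK-2 and RPTEC/TERT1 were compared with limma 3.58.1 (lmFit and eBayes, R 4.3.3) over 16468 genes, those well above background on 2 or more arrays, with Benjamini-Hochberg adjustment at 0.05. This step was checked on simulated data. The p-values measure only the spread between these arrays.

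Names come from the array design, and 40 of the 43 probes matched a RefSeq transcript of the same symbol. Probe positions are on GRCh37 and promoters are RefSeq windows on GRCh38.p14. All 30 genes are named. Of other recombination and Fanconi genes the 3 with the largest range are named (1 further gene of the rule is not reported here), of the remaining lists MKI67 and TOP2A, and some markers after their values were seen. The genes and lists were chosen with earlier results of these data known. Alternatives were normexp correction (offset 50), the deposited log2 values, quantile normalization, another percentile, other filters, the brightest probe, outlier spots kept, a replicate block and leaving out each array.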

Additional observations from a re-analysis of the deposited data

Results flagged for a closer look

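The difference between replicate 2 and replicate 1 had opposite signs in the arrays labelled HK-2 and RPTEC/TERT1 for the median of the 30 genes (2.17 in HK-2 and -2.14 in RPTEC/TERT1, log2) and for 23 single genes, each beyond 1 in both. Whether the difference between replicates differed between the labels was not tested, with 1 array for each replicate of a label, and the genes share the same 4 arrays. In genes measured above background on all arrays by every probe, replicate 2 of HK-2 was higher than replicate 1 by 5.51 in RAD54L, 4.43 in BRCA1, 4.09 in FANCI, 3.44 in FANCG, 3.43 in BARD1, 2.91 in XRCC2, 2.08 in XRCC3, 2.07 in FANCL, 2.00 in MSH6, 1.69 in CHEK1, 1.30 in FANCE, 1.24 in FANCM and 1.08 in ATR. In genes with a probe below background on HK-2 rep1 the difference is a lower bound. It was at least 6.48 in EXO1, 5.98 in BLM, 5.39 in RAD51AP1, 4.08 in FANCB, 3.20 in BRIP1, 2.79 in FANCA, 2.47 in CHEK2, 2.24 in RAD54B and 2.10 in BRCA2, and these have no order among themselves. FANCD2 differed by 2.71. Of its probes, A_23_P345678 was below background on both HK-2 arrays and A_33_P3257808 on HK-2 rep1. The FANCD2 probe A_23_P143994, well above background on both HK-2 arrays, differed by 3.32. In RPTEC/TERT1, replicate 2 was lower than replicate 1 in the same 23 genes, with differences from -5.82 or beyond (EXO1) to -1.01 (FANCE).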

How the results depend on the processing

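No gene was called between the labels under any alternative run. With the replicate number as a replicate block, 0 genes were called, 0 of the 30 among them, and same-numbered arrays deviated from their label means with a correlation of -0.810, so the numbers do not show a pairing. With the crossed pairs as a block, added after the data had been seen, 0 were called, and 183 lay under 0.05 without adjustment. Leaving out 1 array at a time, the median difference of the 30 genes between the labels ran from -1.20 (without HK-2 rep2) to 1.16 (without HK-2 rep1), against 0.070, and was 1.01 without RPTEC/TERT1 rep1 and -1.05 without RPTEC/TERT1 rep2. The median of the mean level ran from -1.69 to -0.79. The count of genes at an unadjusted p under 0.05, 23 with all arrays, ran from 12 to 94 when leaving out an array, was 245 without a filter on dim genes and 5 with the replicate block.

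Of 822 differences above 1 between single arrays, counted over the alternatives, 788 kept their direction and 730 stayed above 1. The 822 include those under the other filters on dim genes, which left these levels unchanged, so that they could not turn. Most of the signs that turned did so with normexp or the deposited values, as given below. Normexp correction moved the median within replicate 1 to -0.17, that between the HK-2 arrays to 0.29, and that of HK-2 rep1 minus RPTEC/TERT1 rep2 to 1.55. It shifted the median of all genes tested to 0.93 and -0.91 in the former 2, relative to which the 30 genes lay at -1.10 and 1.201. The deposited log2 values moved these medians to -0.36, 0.50 and 0.95. Signs turned for single genes. With normexp, HK-2 minus RPTEC/TERT1 in replicate 1 was 1.24 in BRIP1, 1.83 in BRCA2, 1.24 in RAD54B, 1.24 in XRCC2, 0.55 in FANCA, 0.28 in FANCB, 1.13 in FANCD2, 0.039 in CHEK1 and 0.72 in CHEK2, and replicate 2 minus replicate 1 in HK-2 was -1.38 in BRIP1, -2.14 in BRCA2, -1.04 in RAD54B, -0.59 in XRCC2, -0.68 in FANCA, -0.82 in FANCB, -0.68 in FANCC, -1.18 in FANCD2, -0.15 in ATR and -0.61 in CHEK2. With the deposited values the former was 0.39 in BRIP1, 0.94 in BRCA2, 0.50 in RAD54B, 0.49 in XRCC2, 0.32 in FANCD2 and 0.045 in CHEK2, and the latter -0.54 in BRIP1, -1.29 in BRCA2, -0.31 in RAD54B, -0.051 in FANCB, -0.17 in FANCC and -0.41 in FANCD2. With the brightest probe XRCC3 was 0.0066 in replicate 1, -0.28 in replicate 2 and -0.57 between the HK-2 arrays, since this is the probe that disagrees. Without the 7 spots of bright background on HK-2 rep1, normexp gave medians of -1.26 within replicate 1, 1.36 within replicate 2, 1.37 between the HK-2 arrays and -1.29 between the RPTEC/TERT1 arrays, with no sign turned, and 17 genes more than 1 lower in HK-2 within replicate 1.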
